A study of Mus musculus with 20 samples.

Results

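To describe muscle growth without the stem cells of muscle, plantaris muscle of satellite cell-depleted (SC-) mice was compared between day 7 of mechanical overload (MOV) and sham surgery. The comparison rests on 4 of the 20 arrays of the study, the 2 SC- day 7 arrays and the 2 SC- sham arrays, and on 19505 genes, which are all genes that the array annotation pairs with a probe set of their own. All mice were 5-month-old females carrying Pax7CreER/+ and Rosa26DTA/+, and the SC- groups had received tamoxifen, which switches on diphtheria toxin A in cells that use the *Pax7* promoter. Satellite cell-replete (SC+) mice had the same genotype and received vehicle. The SC- day 7 and SC- sham groups share genotype and tamoxifen and differ in surgery, whereas SC- and SC+ mice differ in the drug given as well as in satellite cells, and these cannot be told apart. MOV was made by removing the soleus and a part of the gastrocnemius from both hind limbs, which leaves the plantaris to carry their load. Each array held RNA pooled from 2 or 3 mice, so the spread between the arrays of a group is between pools. Values are levels on the log2 scale after robust multi-array average processing, where a difference of 1 is a doubling, and they are given as replicate 1 and then replicate 2.

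Satellite cells are the resident stem cells of skeletal muscle. They lie between the fibre and its basement membrane, carry the transcription factor *Pax7*, divide when muscle is loaded or injured, and give rise to myoblasts that fuse with fibres. A muscle under overload also remodels its matrix, takes up macrophages and other immune cells, and shifts the contractile and metabolic genes of its fibres. Because whole muscle was measured, more RNA from a cell type may mean more cells or more RNA per cell, and these cannot be told apart.

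*Pax7* itself was close to background on every array, at 4.53 and 4.34 in SC- day 7, 4.70 and 4.23 in SC- sham, 4.77 and 4.81 in SC+ day 7 and 4.84 and 5.02 in SC+ sham, so it checks the depletion poorly. The myofibre markers checked the tissue, since *Myh4* lay between 19.59 and 19.92 on the 4 SC- arrays. The SC- day 7 arrays correlated with each other at r = 0.9895 and the SC- sham arrays at r = 0.9831 over genes, against 0.9107 to 0.9268 across the groups. SC+ sham replicate 2 stood apart from SC+ sham replicate 1, with *Myh3* at 13.62 against 7.46 and the median of 18 macrophage genes at 8.39 against 6.67, and it enters every comparison with the SC+ response below.

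MOV changed a large part of the genes of the SC- plantaris by day 7. At an adjusted p under 0.05, 2935 genes rose (15% of 19505) and 2653 fell (13.6%). Either way, 5588 genes changed (28.6%). The rise was at least 1 on the log2 scale for 2330 genes (11.9%) and at least 4 for 132 genes (0.677%), and the fall was at least 1 for 1729 genes (8.86%) and at least 4 for 38 genes (0.195%). The levels of the day 7 and sham arrays did not overlap for 60.1% of genes, and the median difference over all genes was -0.09.

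The 15 largest rises included several proteins of the extracellular matrix. *Tnc*, which encodes the matrix protein tenascin C of loaded connective tissue, stood at 16.54 and 16.53 on the day 7 arrays and at 10.77 and 8.39 on the sham arrays. Its log2 fold change was 6.96 (SE 0.93, adjusted p = 1.42e-05). *Tnn*, a related tenascin, rose from 4.78 and 5.29 to 12.39 and 11.59 (6.95, SE 0.57). *Cthrc1*, a secreted protein of cells that lay down collagen, *C1qtnf3*, a secreted protein of the C1q family, and the thrombospondins *Thbs1* and *Thbs2* rose by 6.50 to 6.94. The others were *Mest*, an imprinted gene (6.43), *Mki67*, a marker of dividing cells (6.33), *Sfrp1*, a secreted Wnt antagonist (6.28), *Mmp9*, a matrix protease (6.15), *Nt5dc2* (6.09), *Timp1*, an inhibitor of matrix proteases (6.04), *Lox*, which crosslinks collagen (6.00), *Ddah1*, which breaks down methylated arginine (5.88), and *Hmox1*, which breaks down haem (5.87). In all 15, both day 7 arrays lay above both sham arrays, as the choice of these genes required.

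The 15 largest falls included genes of the sarcoplasmic reticulum, of mitochondrial control and of glycogen breakdown. *Asb15*, which encodes an ankyrin repeat protein of striated muscle, stood at 7.74 and 9.54 at day 7 and at 14.05 and 15.31 in sham, a log2 fold change of -6.04. *Dhrs7c*, a reductase of the sarcoplasmic reticulum, stood at 8.14 and 8.42 against 13.74 and 13.89 (-5.54, adjusted p = 1.41e-08). *Ppargc1a*, the coactivator that drives mitochondrial biogenesis, stood at 8.78 and 9.42 against 14.63 and 13.11 (-4.77, adjusted p = 3.51e-05), and *Perm1*, a muscle regulator that acts with it, fell by 4.65. *Ostn*, which encodes the secreted peptide musclin, fell by 4.80. *Gpd1* and *Gpd2*, the enzymes of the glycerol phosphate shuttle, fell by 4.59 and 4.69, and *Phkg1*, the catalytic subunit of phosphorylase kinase, by 4.64. The rest of the 15 were *Tspan8*, *Smco1*, *Ppp1r1a*, *Klhl38*, *Plcd4*, *Asb14* and the muscle ribosomal protein gene *Rpl3l*, with log2 fold changes from -4.94 to -4.58.

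**Figure D1:**
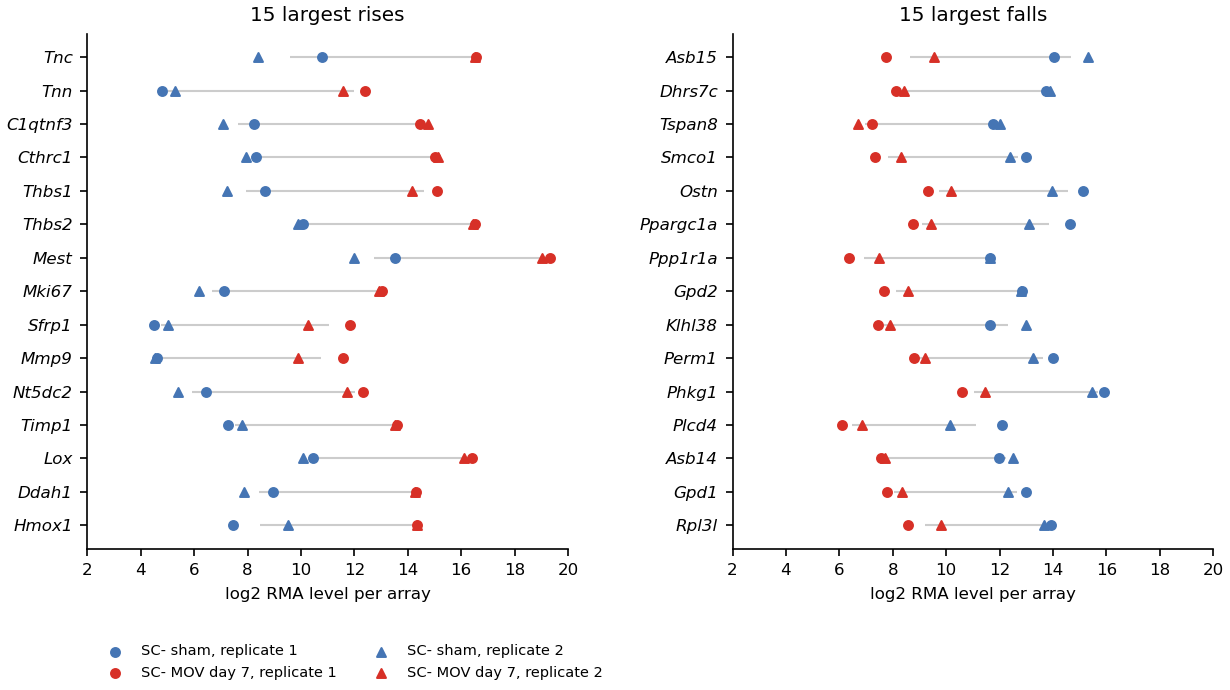
Log2 level on each SC- sham array (blue) and SC- MOV day 7 array (red) for the 15 largest rises (left) and the 15 largest falls (right), with circles for replicate 1, triangles for replicate 2 and grey lines between the group means. Every red point lies on 1 side of both blue points of its gene, from *Tnc* (6.96) to *Hmox1* (5.87) on the left and from *Asb15* (-6.04) to *Rpl3l* (-4.58) on the right.

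Genes of the fibrillar matrix rose in SC- muscle. Of 17 collagen chains, 16 rose and 0 fell, with a median log2 fold change of 3.24. *Col1a1*, a chain of the main collagen of tendon and scar, stood at 18.04 and 18.55 at day 7 and at 13.20 and 12.24 in sham (5.58, SE 0.94, adjusted p = 0.000134). *Col3a1*, a chain of the fine fibrils of young connective tissue, rose by 4.50, and *Col5a1* and *Col5a2*, chains of the collagen that starts fibril assembly, rose by 5.62 and 5.33. *Col8a1* was the 1 chain that did not pass, at 7.12 and 8.30 against 7.36 and 7.11 (0.47, adjusted p = 0.35). The chains of basement membrane collagen, *Col4a1* and *Col4a2*, rose less in log2 terms, by 1.00 and 1.35.

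Of 21 other matrix proteins, 18 rose and 0 fell, with a median of 3.68. *Fn1*, which encodes fibronectin, rose by 4.88, *Vcan*, a proteoglycan of provisional matrix, by 4.52, and *Aspn*, a small leucine-rich proteoglycan, by 4.91. *Postn*, the matricellular protein periostin, did not pass although it stood at 19.71 and 19.66 against 16.43 and 14.83 (4.05, SE 1.60, adjusted p = 0.068). At day 7 it was close to the highest values of the arrays (19.93), so its fold change may be compressed.

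The enzymes that finish and crosslink collagen rose in 11 of 12 cases, with a median of 3.50. *Lox*, named above, stood at 16.41 and 16.10 against 10.45 and 10.06. *Serpinh1*, the collagen chaperone, rose by 4.94, *Plod2*, a lysyl hydroxylase, by 4.14, and *Bmp1*, which trims procollagen, by 4.21. Proteases and their inhibitors split, with 13 of 18 higher and 2 lower. *Mmp14*, a protease anchored in the cell membrane, rose by 5.32, *Mmp12*, a protease of macrophages, by 5.74, and *Mmp2* by 4.29. The inhibitors went both ways, since *Timp1* stood at 13.59 and 13.53 against 7.27 and 7.78, whereas *Timp4* stood at 5.70 and 6.02 against 9.29 and 9.23 (-3.40, adjusted p = 1e-05) and *Timp3* fell by 0.92. The call of *Timp3* was lost without SC- day 7 replicate 1 (adjusted p = 0.21), SC- day 7 replicate 2 (0.091) or SC- sham replicate 2 (0.4). Integrins and laminins, the receptors and basement membrane proteins that tie cells to matrix, rose in 12 of 19 cases and fell in 2, the muscle laminin chains *Lama2* (-0.84) and *Lamb2* (-0.86). The call of *Lama2* was lost without SC- day 7 replicate 1 (adjusted p = 0.24), without SC- sham replicate 1 (0.11) and without SC- sham replicate 2 (0.059), and that of *Lamb2* without SC- day 7 replicate 2 (0.079) and without SC- sham replicate 2 (0.12).

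Some markers of fibroblasts and related cells rose with these matrix genes and others did not, beside 15% of all genes higher and 13.6% lower. The tenocyte list overlaps in membership with the other matrix proteins above. The part of these cells in the matrix counts was not tested. Of 10 markers of fibro-adipogenic progenitors, 7 rose and 1, *Gsn*, fell, and the median level of the list was 11.53 and 11.81 at day 7 against 11.16 and 10.90 in sham. *Tcf7l2*, a transcription factor of muscle connective tissue cells, rose by 1.62. Of 11 tenocyte markers 4 rose, among them *Tnmd*, which encodes tenomodulin, at 14.27 and 14.62 against 10.70 and 10.14 (4.03), and *Scx*, the transcription factor of tendon cells, at 9.05 and 8.65 against 7.41 and 6.43 (1.93). *Chad*, which encodes chondroadherin, fell by 3.48. Of 11 markers of pericytes and smooth muscle, 5 rose and 1 fell, and the lowest log2 fold change in the list was -2.42. Among the risers, *Acta2*, smooth muscle actin and also a marker of myofibroblasts, stood at 15.95 and 15.95 against 11.62 and 10.58 (4.85, adjusted p = 2.88e-06) and *Tagln* was 4.55 higher. *Myh11*, the myosin of mature smooth muscle, stood at 7.23 and 6.80 against 7.65 and 7.12 and did not pass (adjusted p = 0.31). The median level of this list was 9.40 and 9.13 at day 7 and 7.65 and 7.23 in sham.

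Chaperones and translocation proteins of the endoplasmic reticulum, where collagens fold, rose in 12 of 17 cases with a median of 1.59. *Hspa5*, which encodes the main chaperone BiP, stood at 17.15 and 16.65 against 14.94 and 14.97 (1.94, adjusted p = 1.2e-05). *Pdia3*, a disulphide isomerase, rose from 9.99 and 10.43 to 14.22 and 14.21, and *Sec24d*, a coat protein of vesicles that carry procollagen out, rose by 4.57. *Xbp1* and *Atf6*, transcription factors that raise this set of genes, did not pass, at 14.24 and 13.62 against 12.63 and 13.76 (adjusted p = 0.101) and at 11.82 and 11.37 against 11.53 and 11.90 (adjusted p = 0.789).

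The endoplasmic reticulum stress element, to which ATF6 binds together with NF-Y, was looked for in the 250 bases before each gene's start site in RefSeq (GRCm38.p6), as CCAAT followed after 9 bases by CCACG, on both strands. It was found in 7 of 14 genes of this list that had a promoter window, and in 26 of 15691 genes overall (0.166%), as a description of sequence only. The windows of 30 bases below show it, read on the gene's strand with the element in capitals, because these 7 genes are the ones in which the element and a rise at day 7 were both found. In *Calr* and *Creld2* the element lies on the opposite strand, so its letters read reversed and complemented.
*Hspa5*: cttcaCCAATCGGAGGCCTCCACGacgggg
*Hsp90b1*: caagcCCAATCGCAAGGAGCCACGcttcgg
*Calr*: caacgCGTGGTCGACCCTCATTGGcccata
*Canx*: attgaCCAATCACCACGCTCCACGaagaat
*Pdia6*: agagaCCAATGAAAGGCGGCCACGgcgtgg
*Creld2*: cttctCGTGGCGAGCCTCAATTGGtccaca
*Dnajc3*: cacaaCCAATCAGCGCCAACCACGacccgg

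Coordinates in parentheses are those of the windows. Read on the gene's strand, the element itself starts 65 bases before the start site in *Hspa5* (chr2:34772020-34772049, plus strand), 212 in *Hsp90b1* (chr10:86705632-86705661, minus strand), 162 in *Calr* (chr8:84847069-84847098, minus strand), 145 in *Canx* (chr11:50325794-50325823, minus strand), 98 in *Pdia6* (chr12:17266486-17266515, plus strand), 126 in *Creld2* (chr15:88819515-88819544, plus strand) and 105 in *Dnajc3* (chr14:118937822-118937851, plus strand). The log2 fold changes of the 7 genes ran from 0.78 in *Dnajc3*, which did not pass on any of the 4 omissions of an array (adjusted p from 0.061 to 0.13), to 3.75 in *Pdia6*. *Hsp90b1*, which encodes the chaperone GRP94, stood at 16.94 and 16.85 against 14.20 and 14.16 (2.71). *Calr* and *Canx*, the lectin chaperones calreticulin and calnexin, rose by 2.47 and 1.78, and *Creld2* by 1.43.

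Genes of macrophages made up the next large group of rises. Of 18 macrophage markers 16 rose and 0 fell, with a median of 3.37, and the median level of the list was 10.84 and 10.20 at day 7 against 7.29 and 7.24 in sham. *Csf1r*, the receptor through which macrophages survive, stood at 13.85 and 12.80 against 8.52 and 8.53 (4.80, SE 0.60, adjusted p = 6.51e-06). *Ctss*, a lysosomal protease of antigen-presenting cells, rose by 5.77, *Lyz2*, which encodes lysozyme, by 5.48, *Itgam* (CD11b) by 4.39 and *Mrc1*, the mannose receptor, by 3.98. *Adgre1*, which encodes F4/80, stood at 10.47 and 9.95 against 8.40 and 8.11 (1.95). The members that did not pass were *Cx3cr1*, at 5.45 and 5.19 against 4.41 and 4.77, and *Cd163*, at 6.35 and 6.01 against 6.85 and 6.78.

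Lysosomal cathepsins, which both macrophages and other cells use, rose in 9 of 11 cases, and *Ctsk*, the collagen-degrading cathepsin, stood at 13.39 and 12.80 against 7.76 and 7.52 (5.46, adjusted p = 1.88e-07). Complement genes rose in 11 of 17 cases, with the initiating components *C1qa*, *C1qb* and *C1qc* 4.01, 3.90 and 2.99 higher and the receptor *C3ar1* 5.23 higher. *Cd55*, which protects cells from complement, was the 1 member that fell (-1.71). Chemokines rose in 10 of 18 cases. *Ccl9* rose by 4.37, *Cxcl16* by 3.83 and *Ccl2*, which draws monocytes, by 2.68, from 6.82 and 7.72 to 10.34 and 9.55, while *Ccl11*, which draws eosinophils, fell by 2.16.

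The other leukocyte lists moved in part. Of 9 neutrophil markers 4 rose, with *S100a8* at 9.58 and 8.93 against 4.90 and 5.59 (4.01) and *Csf3r*, the receptor of granulocyte colony-stimulating factor, at 9.80 and 9.35 against 5.68 and 5.82 (3.83). The granule genes *Elane*, *Ngp*, *Camp* and *Mpo* lay between 4.04 and 5.72 on all 4 arrays, near background. Of 10 lymphocyte markers *Cd4* was the 1 that rose (1.05), a call that was lost without SC- day 7 replicate 2 (adjusted p = 0.079) or SC- sham replicate 2 (0.16), and *Cd3e* stood at 5.67 and 5.06 against 5.32 and 5.39. Endothelial markers went both ways, with 4 of 11 higher (*Cdh5* by 1.56, *Eng* by 1.53, *Pecam1* by 1.24 and *Emcn* by 1.11) and 2 lower, the growth factor receptors *Flt1* (-1.23) and *Tek* (-0.84). Of these, *Pecam1* did not pass without SC- day 7 replicate 1 (adjusted p = 0.096) and *Tek* without SC- day 7 replicate 2 (0.18) or SC- sham replicate 2 (0.23). None of 7 Schwann cell markers passed, and 1 of 7 adipocyte markers, *Retn*, fell, which did not hold without SC- day 7 replicate 1 (adjusted p = 0.18) or SC- sham replicate 1 (0.27). Of 12 satellite cell markers 2 rose, *Vcam1* (3.26) and *Cd34* (1.33), both of which other cells of muscle carry as well. Over all genes 15% rose and 13.6% fell. The counts of 2 of 12 satellite cell markers and 1 of 10 lymphocyte markers higher lie near or below the former share. The count of 1 of 7 adipocyte markers lower is close to the latter.

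Cell cycle genes rose in 26 of 28 cases in muscle whose satellite cells had been depleted, with 0 lower and a median of 2.39. *Mki67* stood at 13.05 and 12.92 at day 7 and at 7.12 and 6.19 in sham. *Ccna2*, a cyclin of S and G2 phase, rose by 4.62, the mitotic kinases *Plk1* and *Cdk1* by 3.90 and 3.51, and *Top2a*, which untangles replicated DNA, from 6.28 and 6.14 to 8.67 and 8.87 (2.56). *Rrm1* and *Aurka* did not pass, at 10.95 and 10.82 against 10.28 and 10.26 (adjusted p = 0.119) and at 7.73 and 7.68 against 6.83 and 7.19 (adjusted p = 0.0928). Arrays of whole muscle do not show which cells held these transcripts.

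**Figure D2:**
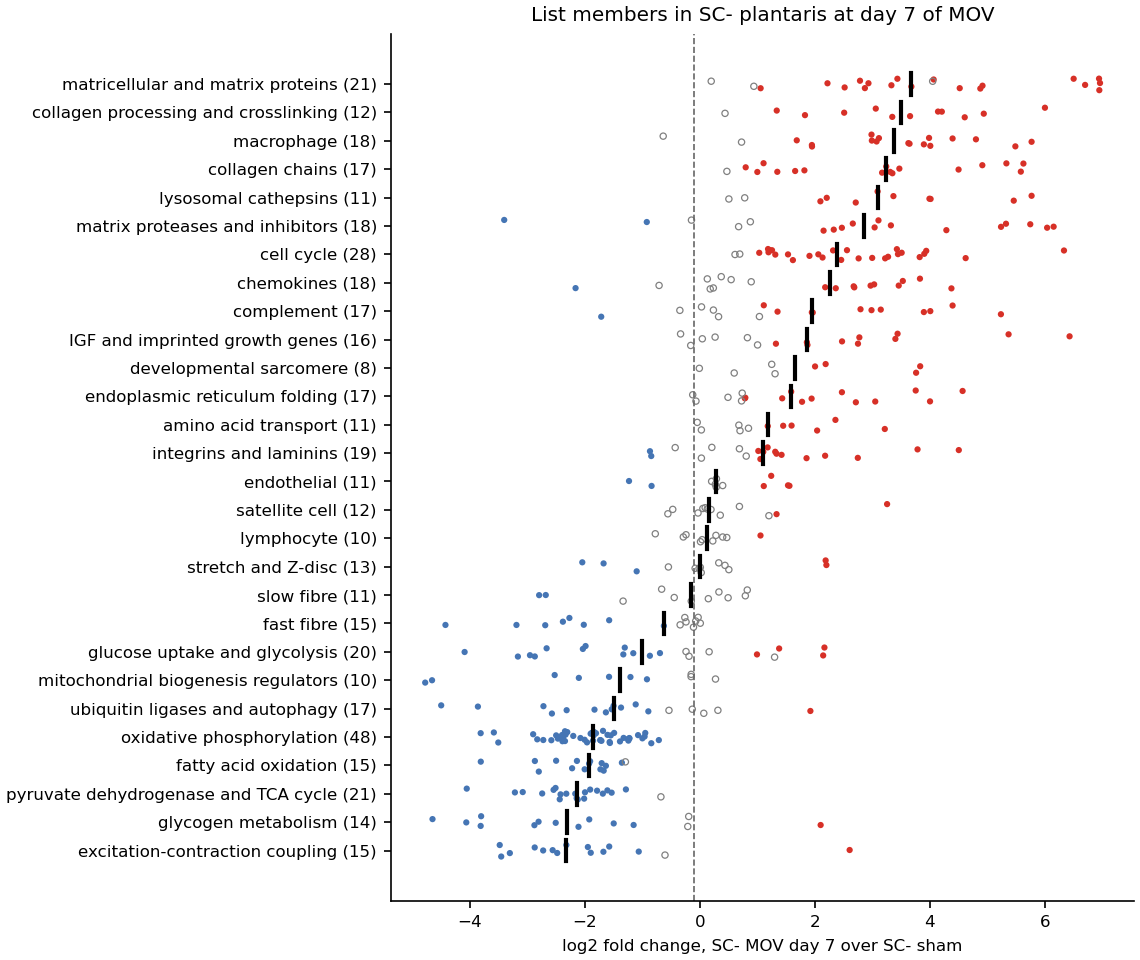
Log2 fold change from SC- sham to SC- MOV day 7 of every measured member of 28 gene lists (number of members in parentheses), with red and blue points for genes that rose and fell at an adjusted p under 0.05, open points for genes that did not pass, black bars for list medians and a dashed line at the median of all genes (-0.09). Matrix, macrophage and cell cycle lists lie to the right and mitochondrial, glycogen and excitation-contraction coupling lists to the left, with medians from 3.68 to -2.32.

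Genes that couple the membrane signal to calcium release fell in 13 of 15 cases, with a median of -2.32. *Ryr1*, the calcium release channel of the sarcoplasmic reticulum, stood at 13.50 and 14.46 at day 7 and at 16.73 and 16.67 in sham (-2.72, SE 0.32, adjusted p = 3.66e-06). *Cacna1s*, the voltage sensor that opens it, fell by 2.32, and *Jph1* and *Jph2*, the junctophilins that hold the membranes of the triad together, by 3.48 and 2.48. *Clcn1*, the chloride channel that steadies the resting membrane, fell by 3.45. *Sln*, which encodes sarcolipin, an inhibitor of the calcium pump, was the 1 member that rose, from 9.07 and 8.98 to 11.98 and 11.29 (2.61), and its call was lost without SC- day 7 replicate 1 (adjusted p = 0.074).

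Fast-fibre genes fell in 8 of 15 cases and rose in 0. *Mylk2*, the light chain kinase of skeletal muscle, stood at 9.05 and 10.69 against 14.18 and 14.40 (-4.42), *Pvalb*, the calcium buffer parvalbumin, at 15.84 and 16.71 against 19.04 and 18.88 (-2.68), and *Actn3*, the Z-disc actinin of fast fibres, at 16.96 and 17.52 against 19.74 and 19.49 (-2.38). The myosin heavy chains *Myh4*, *Myh2* and *Myh1* did not pass (adjusted p = 0.408, 0.489 and 0.431), and *Myh4* and *Myh2* lay near the top of the scale on every one of the 4 arrays. Slow-fibre genes rose in 0 and fell in 2 of 11 cases, beside 15% and 13.6% of all genes. *Myl3* stood at 7.61 and 8.18 against 10.09 and 11.27 (-2.79), and *Myh7*, the slow myosin, at 10.23 and 11.33 against 11.64 and 15.26 (-2.68, adjusted p = 0.00726), a call that was lost without SC- sham replicate 2 (adjusted p = 0.22) or SC- day 7 replicate 1 (0.1). The sham arrays differed widely in slow-fibre genes, with *Tnni1* at 9.06 and 11.75 and *Tnnt1* at 11.92 and 14.12, and over omissions of single arrays between 0 and 4 members rose and between 1 and 4 fell.

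Sarcomere genes of developing muscle rose in 4 of 8 cases, with a median of 1.66. *Ankrd1*, a gene raised by stretch, is among these risers and is also counted in the stretch and Z-disc list below. *Myh3*, the embryonic myosin, stood at 12.83 and 10.72 at day 7 and at 8.40 and 7.63 in sham (3.76, SE 1.20, adjusted p = 0.0229). *Tnnt2*, the troponin T of heart and embryonic muscle, rose from 7.06 and 6.17 to 11.41 and 9.48 (3.83, adjusted p = 0.00138), and *Myl4*, the embryonic light chain, from 12.86 and 12.86 to 15.48 and 14.25 (2.00). SC- day 7 replicate 1 was the higher array in each of the 3, and *Myl4* did not pass without it (adjusted p = 0.11). The call of *Myh3* was lost without SC- day 7 replicate 1 (adjusted p = 0.23), SC- sham replicate 1 (0.056) or SC- sham replicate 2 (0.12), and the count of risers ran from 1 to 6 over such omissions. *Myh8*, the neonatal myosin, lay between 19.90 and 19.92 on all 4 arrays and could not show a rise.

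Among myogenic regulators, *Myog*, the transcription factor of differentiating myoblasts, stood at 8.73 and 7.38 against 6.71 and 6.27 (1.56, adjusted p = 0.00819), a call that was lost without SC- day 7 replicate 1 (0.2) or SC- sham replicate 2 (0.074). *Mymk*, which encodes the fusion protein myomaker, stood at 11.82 and 9.68 against 8.35 and 7.08 (3.04, SE 1.11, adjusted p = 0.0474) and did not pass without SC- day 7 replicate 1 (adjusted p = 0.36), SC- sham replicate 1 (0.065) or SC- sham replicate 2 (0.24). *Mymx*, its partner in fusion, stood at 6.08 and 6.20 against 6.49 and 5.82 and did not pass (adjusted p = 0.986). *Myod1* and *Myf5*, which mark myoblasts, were near background on all 4 arrays. *Myf6* and *Mef2d*, regulators of the mature fibre, fell by 1.65 and 2.09, *Myf6* not without SC- day 7 replicate 2 (adjusted p = 0.099) or SC- sham replicate 2 (0.12). Of 11 genes tied to the acetylcholine receptor and to loss of nerve contact, *Runx1* (4.78) and *Ncam1* (2.99) rose and *Chrne* (-1.41) and *Hdac4* (-0.96) fell. These counts, 2 higher and 2 lower, lie near the 15% and 13.6% of all genes. The call of *Hdac4* held on 1 omission alone, that of SC- sham replicate 1, and without SC- day 7 replicate 2, 4 of the 11 genes rose.

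Mitochondrial genes were the largest group of falls among the lists. All 48 measured subunits of oxidative phosphorylation fell, with a median of -1.85 and a range from -3.81 to -0.71. *Cox8b*, a muscle subunit of cytochrome oxidase, stood at 9.49 and 10.30 against 13.59 and 13.82 (-3.81, adjusted p = 1.19e-06), and *Cox7a1* and *Cox6a2*, the other muscle forms, fell by 3.58 and 2.90. Of 21 enzymes that form acetyl-CoA from pyruvate or belong to the TCA cycle, with their regulators, 20 fell, with a median of -2.14. *Cs*, citrate synthase, stood at 13.67 and 14.02 against 15.85 and 16.07 (-2.12), *Idh3a* fell by 2.74, and the kinases that switch pyruvate dehydrogenase off, *Pdk2* and *Pdk4*, fell by 4.05 and 3.21. *Sucla2* was the 1 that did not pass (-0.67, adjusted p = 0.0922).

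Fatty acid oxidation followed, with 14 of 15 genes lower. *Cpt1b*, which admits fatty acids to the mitochondrion, stood at 9.79 and 10.21 against 13.42 and 14.18 (-3.80, adjusted p = 4.12e-07), and *Acadm* and *Hadh*, enzymes of the oxidation spiral, fell by 2.87 and 2.80. Of 10 regulators of mitochondrial biogenesis, 7 fell, *Ppargc1a* and *Perm1* most, then *Ppara* (-2.52), *Tfb2m* (-2.10), *Esrrg* (-1.58), *Tfam* (-1.20) and *Ppargc1b* (-0.92). *Esrrg* did not pass without SC- day 7 replicate 2 (adjusted p = 0.06) or SC- sham replicate 2 (0.057), nor *Tfam* without SC- sham replicate 2 (0.052). *Gabpa* and *Nrf1*, which also act on these genes, did not pass, with *Gabpa* at 11.64 and 11.89 against 11.27 and 11.71. The element of the oestrogen-related receptors, TCA directly followed by AGGTCA on either strand, was looked for in the 250 bases before the start site. An exact match was in 53 of 15691 genes (0.338%) and in 0 of the 37 oxidative phosphorylation genes with a window. At so low a share over all genes, 0 matches in 37 windows are likely for any set of genes, so no conclusion is drawn.

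Most carbohydrate genes fell, and a few isoforms that many cell types use rose. Of 14 genes of glycogen metabolism, 11 fell, with *Ppp1r3a*, the glycogen-targeting subunit of a phosphatase, at 13.13 and 13.93 against 17.49 and 17.69 (-4.06) and *Phka1* and *Gys1* lower by 3.81 and 2.50. *Pgm2* was the 1 riser (2.10). Of 20 genes of glucose uptake and glycolysis, 12 fell and 4 rose, 2 of them without SC- day 7 replicate 1. *Slc2a4*, the insulin-responsive glucose transporter, stood at 8.61 and 9.19 against 12.96 and 13.01 (-4.09, adjusted p = 6.56e-07), *Pgam2*, the muscle mutase, fell by 3.16 and *Pfkm*, the muscle phosphofructokinase, by 2.66. Other isoforms rose, *Pgam1* by 2.17, *Pfkp* by 1.38 (not without SC- day 7 replicate 1, adjusted p = 0.061) and *Hk1*, at 9.88 and 9.86 against 7.85 and 7.59, 2.15 higher, while *Hk2* fell by 2.87. *Slc2a1* stood at 10.41 and 9.35 against 7.51 and 9.65 and did not pass (adjusted p = 0.0879). Without SC- sham replicate 2 it passed (adjusted p = 0.0028).

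Some NADPH, serine, nucleotide and redox genes rose and others fell. The enzymes *Me3* (-3.64), *Idh2* (-3.15), *Me1* (-2.65) and *Adssl1* (-3.31) fell. *Pgd*, of the oxidative pentose phosphate branch, rose from 8.14 and 7.87 to 9.56 and 9.31 (1.43), *Psat1*, of serine synthesis, by 2.33, and *Uck2*, of pyrimidine salvage, by 2.48. *Prdx4*, a peroxidase of the endoplasmic reticulum, rose by 3.31 and *Gpx1* by 2.99, whereas *Sod2*, the mitochondrial superoxide dismutase, fell by 2.55 and *Nqo1* by 2.48. Counts over these lists were 3 higher and 5 lower of 16 for the pentose phosphate and NADPH genes, 5 and 5 of 17 for serine, folate and ATF4 targets, 9 and 4 of 20 for nucleotide synthesis and 6 and 3 of 19 for redox genes, beside 15% higher and 13.6% lower over all genes. Several of these counts lie near those shares. Without SC- day 7 replicate 1, 5 nucleotide genes were higher and 2 serine, folate and ATF4 genes lower, and the latter count was 3 without SC- day 7 replicate 2 or SC- sham replicate 1.

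Among growth signals, *Igf1* stood at 18.15 and 17.84 at day 7 and at 12.82 and 12.43 in sham (5.37, SE 0.69, adjusted p = 8.71e-06), and *Mstn*, which encodes myostatin, the inhibitor of muscle growth, at 8.39 and 8.99 against 13.41 and 13.05 (-4.54, SE 0.34, adjusted p = 1.15e-07). Both genes had replicates closer to each other than to any array of the other group. Of 16 IGF and imprinted growth genes 10 rose and 0 fell, *Igfbp4* by 3.44, *Grb10* by 3.40 and *Plagl1* by 2.75. *Igf2*, the fetal growth factor, stood at 13.01 and 11.05 against 9.63 and 8.88 (2.77, adjusted p = 0.0169), and its call was lost without SC- day 7 replicate 1 (0.24) or SC- sham replicate 2 (0.11). Of 21 genes of myostatin, activin and TGF-beta signalling, 7 rose and 5 fell, *Mstn* among the latter, with a median of -0.07. Of the TGF-beta family, *Tgfb1* rose by 3.46, *Tgfb3* by 2.17 and the target *Tgfbi* by 5.60, and *Fst*, which encodes the myostatin inhibitor follistatin, stood at 7.71 and 7.01 against 7.30 and 7.55 (adjusted p = 0.897).

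Genes that break down muscle protein fell in 12 of 17 cases. *Fbxo32*, the ubiquitin ligase atrogin-1, stood at 9.64 and 9.54 against 13.05 and 15.12 (-4.49, adjusted p = 1.7e-05), and *Trim63*, MuRF1, at 12.13 and 11.75 against 14.16 and 15.15 (-2.72). *Asb2*, a ligase subunit that targets filamins, fell by 3.85 and *Klf15*, a transcription factor of the glucocorticoid response, by 2.57, while *Nedd4* rose by 1.92. *Vegfa*, the angiogenic factor that muscle fibres release, fell by 2.45 and *Il15* by 2.10. Amino acid transporters rose in 6 of 11 cases, with *Slc7a5*, which carries leucine, at 8.31 and 8.35 against 6.22 and 6.37 (2.04) and its partner chain *Slc3a2* 1.60 higher. Of 21 genes of ribosome biogenesis, 5 rose and 4 fell, beside 15% and 13.6% of all genes, with a list median of -0.20. Among the risers, *Myc* rose by 2.42 and *Npm1* by 1.65. On omission of an array, the counts of rises and of falls each moved both up and down. The list median was -0.48 without SC- day 7 replicate 1 and -0.41 without SC- sham replicate 1. It was 0.22 without SC- day 7 replicate 2 and 0.15 without SC- sham replicate 2. *Myc* did not pass without SC- day 7 replicate 1 (adjusted p = 0.088) or SC- sham replicate 1 (0.063).

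To place day 7 in the course of the SC- response, the other SC- time points were set beside it. The number of genes called against the same SC- sham arrays was 2812 at day 1 (14.4%), 4146 at day 3 (21.3%), 5436 at day 5 (27.9%) and 5588 at day 7 (28.6%), and since these comparisons share the sham arrays they are not independent. The median log2 fold change of the collagen chains was -0.09, 0.71, 2.09 and 3.24 at days 1, 3, 5 and 7, that of the macrophage list 0.80, 3.90, 4.21 and 3.37, and that of the cell cycle list 0.39, 2.08, 2.74 and 2.39. That of oxidative phosphorylation was -1.13, -1.80, -1.98 and -1.85. The stretch and Z-disc list ran the other way over time, at 4.28, 1.48, 0.71 and 0.01, and heat shock genes at 2.56, 1.19, 0.67 and 0.03.

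At day 7, 2 of 13 stretch and Z-disc genes were higher than in SC- sham and 3 lower, beside 15% and 13.6% of all genes. The lowest log2 fold change in the list was -2.04. *Ankrd1*, a titin-binding protein that is raised by stretch, followed the course of the list median. It stood at 12.71 and 13.37 in SC- sham, at 19.68 and 19.50 at day 1, at 18.25 and 18.06 at day 3, at 17.07 and 16.45 at day 5 and at 15.68 and 14.78 at day 7 (2.19, adjusted p = 0.0153, not without SC- day 7 replicate 1, 0.15, or SC- sham replicate 1, 0.12). *Csrp3*, a Z-disc protein of the same response, stood at 18.24 and 18.33 at day 1 and at 14.72 and 15.86 at day 7 against 13.07 and 13.10 in sham (2.20, adjusted p = 2.01e-05). *Xirp1* stood at 17.37 and 16.75 at day 1 and at 11.31 and 10.64 at day 7 against 10.89 and 10.18 in sham (adjusted p = 0.549 at day 7). *Col1a1* had arrays of 9.33 and 13.87 at day 1, so its level differed widely between the SC- day 1 pools.

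**Figure D3:**
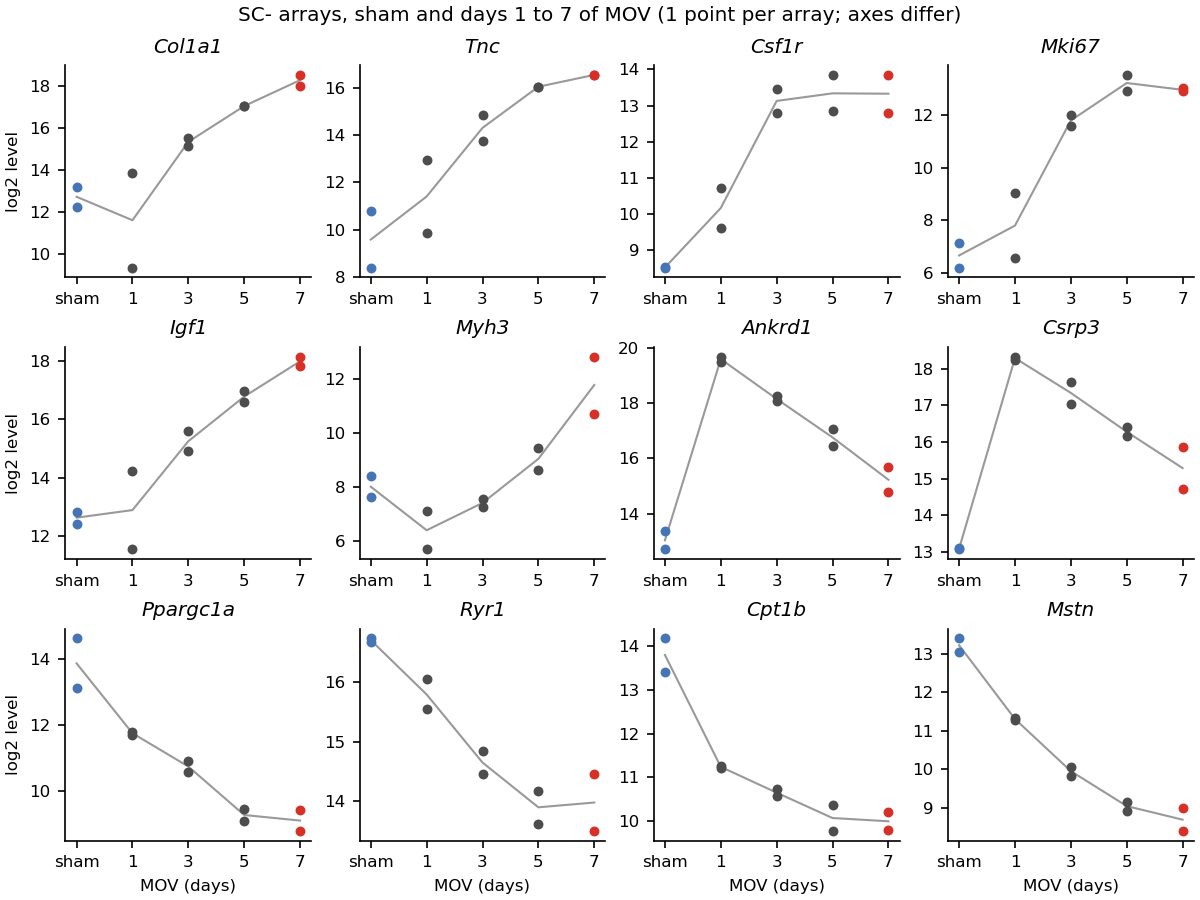
Log2 level of 12 genes on the SC- arrays at sham and days 1, 3, 5 and 7 of MOV, with 1 point per array (blue sham, red day 7, grey other days) and a line through the group means, on axes that differ between genes. *Col1a1*, *Tnc* and *Igf1* are highest at day 7, *Ankrd1* and *Csrp3* are highest at day 1, and *Ppargc1a*, *Cpt1b* and *Mstn* are lowest at day 7.

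Day 7 was then compared with day 5 directly, which leaves the sham arrays out of the contrast. At an adjusted p under 0.05, 6 genes were higher (0.0308% of 19505) and 2 lower (0.0103%) at day 7, and 1489 genes had an unadjusted p under 0.05 (7.63%). *Ptn*, which encodes the heparin-binding growth factor pleiotrophin, stood at 13.83 and 12.93 at day 7 and at 10.04 and 10.54 at day 5 (3.09, adjusted p = 0.00223). *Mmp9* stood at 11.59 and 9.89 against 7.64 and 7.28 (3.28, adjusted p = 0.0268). *Sox9*, a transcription factor of cartilage and tendon progenitors, stood at 9.77 and 9.17 against 7.69 and 7.56, and *Col11a1*, a collagen of cartilage and tendon, at 9.69 and 9.68 against 6.86 and 7.81. *Adamts16* and *Cnn1*, smooth muscle calponin, were also higher, by 1.73 and 1.75. The lower genes were *Cryab*, the small heat shock protein alpha B-crystallin, at 17.25 and 17.57 against 18.63 and 18.74 (-1.27), and *E2f1*, a transcription factor of the cell cycle, at 4.32 and 4.30 against 6.04 and 5.45 (-1.43), below the level where arrays show mostly background. Leaving out 1 of the 4 arrays left between 0 and 3 genes higher and 0 or 1 lower. Without SC- day 7 replicate 1 or SC- day 5 replicate 1, 0 genes were higher.

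To ask whether the response to MOV differed without satellite cells, the SC- response was tested against the SC+ response in the same fit. By limma no gene passed the test of the difference after adjustment (0%), the lowest adjusted p was 0.111, and 1811 genes had an unadjusted p under 0.05 (9.28%), 870 with a higher (4.46%) and 941 with a lower response (4.82%) in SC- muscle. The lowest adjusted p belonged to *Sfrp2*, a secreted Wnt modulator of fibroblasts, and *Csf3r*. *Sfrp2* rose from 6.42 and 6.45 to 12.87 and 11.70 in SC- muscle and stood at 6.77 and 8.01 in SC+ sham and at 9.51 and 10.15 in SC+ day 7, so the response was 3.41 greater in SC- muscle (SE 0.59, unadjusted p = 1.82e-05). *Mmp9* had a response of 6.15 in SC- and 2.53 in SC+ muscle, and *Hmox1* of 5.87 and 2.88. *Tnni1*, the slow troponin I, had a response of 0.49 in SC- and 4.31 in SC+ muscle, a difference of -3.81 (SE 0.88, unadjusted p = 0.000403, adjusted p = 0.224). Without SC- sham replicate 2 its SC- response was 1.84 and passed (adjusted p = 0.0205). Without SC+ sham replicate 1, 109 genes passed with a higher and 18 with a lower response in SC- muscle.

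The stretch and Z-disc list was lower in its SC- response for 9 of 13 members at an unadjusted p under 0.05, against 4.82% of all genes, and higher for 0. *Ankrd2*, a relative of *Ankrd1*, stood at 14.76 and 16.06 at SC- day 7 against 14.29 and 15.51 in SC- sham, and at 16.42 and 16.38 at SC+ day 7 against 14.27 and 13.83 in SC+ sham, a difference between the responses of -1.85 (unadjusted p = 0.00296). *Csrp3* differed by -1.36, *Xirp1* by -1.73 and *Ankrd1* by -2.36. The median response of the list was 0.01 in SC- and 1.22 in SC+ muscle, and the count was 8 of 13 both without SC+ sham replicate 1 and without SC+ sham replicate 2, and from 5 (without SC+ day 7 replicate 1) to 9 over all omissions of a single array. The heat shock list had 4 of 13 members with a lower response in SC- muscle, *Hspb1*, a small heat shock protein of the sarcomere, with responses of 0.53 and 2.28 among them, and this count was 2 without SC+ day 7 replicate 1, SC+ sham replicate 1 or SC- sham replicate 2.

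The counts of the other lists in the response difference depended on single arrays, among them SC+ sham replicate 2, which was the higher of the SC+ sham arrays in macrophage and cell cycle genes. The count over all genes moved as well, down without SC+ sham replicate 2 and up without SC+ sham replicate 1. The share of all genes given below is that of the fit with every array. Cell cycle genes had a greater SC- response for 16 of 28 members at an unadjusted p under 0.05 (4.46% of all genes), 6 without SC+ sham replicate 2 and 18 without SC+ sham replicate 1. In the same order, the counts of the macrophage list were 6, 1 and 13 of 18, and for chemokines 6, 3 and 11 of 18. Excitation-contraction coupling had a lower SC- response for 9, 4 and 10 of 15 members, and oxidative phosphorylation for 15, 2 and 37 of 48. *Cdk1* had a response of 3.51 in SC- and 1.16 in SC+ muscle, *Csf1r* of 4.80 and 2.71, and *Ryr1* of -2.72 and -1.52. Developmental sarcomere genes had a lower SC- response for 2 of 8 members, 5 without SC+ sham replicate 2 and 0 without SC+ sham replicate 1. That list shares *Ankrd1* with the stretch list. The day 7 arrays moved the counts of these lists too. Without SC- day 7 replicate 1 they were 9 for cell cycle, 2 for macrophage, 2 for chemokine, 2 for excitation-contraction coupling, 5 for oxidative phosphorylation and 4 for developmental sarcomere genes, and without SC+ day 7 replicate 1 they were 7, 2, 4, 3, 5 and 1. Without SC- day 7 replicate 2 the count of developmental sarcomere genes was 0. Without SC- sham replicate 1, 2 chemokines and 4 excitation-contraction coupling genes were counted, and without SC- sham replicate 2, 8 oxidative phosphorylation genes.

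**Figure D4:**
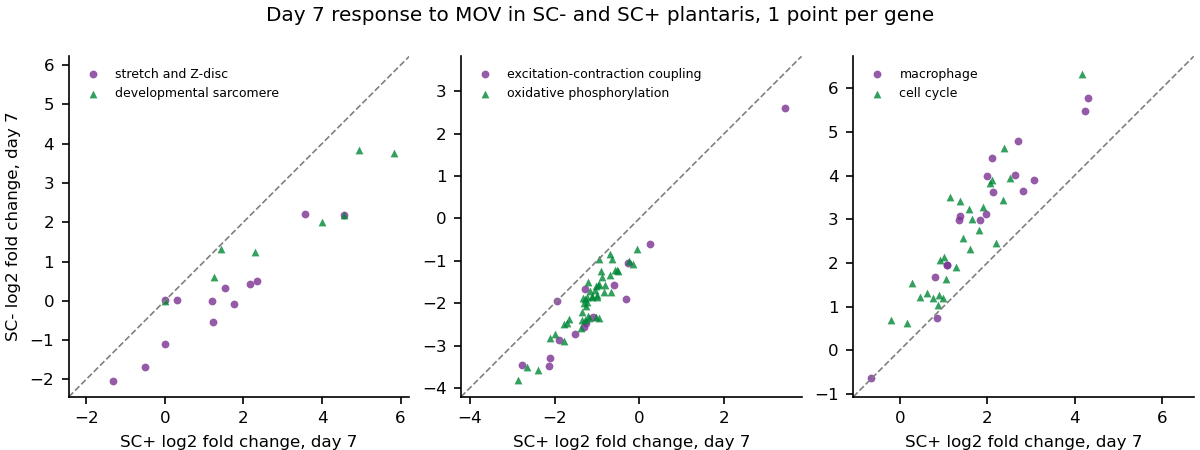
Log2 fold change at day 7 of MOV over the group's own sham in SC+ (x axis) and SC- muscle (y axis), 1 point per gene, for stretch and developmental sarcomere genes (left), excitation-contraction coupling and oxidative phosphorylation genes (middle) and macrophage and cell cycle genes (right), with a dashed line where both are equal. All 13 stretch genes (*Fhl1* by less than 0.01) and 47 of 48 oxidative phosphorylation genes lie below the line (list medians 0.01 and 1.22 for stretch, -1.85 and -1.12 for oxidative phosphorylation) and 28 of 28 cell cycle and 17 of 18 macrophage genes above it (2.39 and 1.33 for cell cycle).

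The levels of SC- and SC+ muscle at day 7 were also compared without the sham arrays. At an adjusted p under 0.05, 43 genes were lower (0.22% of 19505) and 13 higher (0.0666%) in SC- muscle, whereas the SC- and SC+ sham groups differed by limma in 0 genes after adjustment (0%) and in 1088 at an unadjusted p under 0.05 (5.58%). The genes named from this comparison were chosen after their values were seen. *Atp1b4*, a muscle membrane protein related to the beta subunits of the sodium pump, stood at 8.02 and 8.52 in SC- and at 11.74 and 11.00 in SC+ muscle (-3.10, SE 0.27, adjusted p = 1.75e-05), and it was the 1 gene of the 56 that passed on all 4 omissions of an array. In SC- sham it stood at 8.05 and 7.91, and its SC- response did not pass (0.29, adjusted p = 0.484).

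The growth factor gene *Igf2* and several sarcomere and myogenic genes were among those lower in SC- muscle. *Igf2* stood at 13.01 and 11.05 in SC- and at 17.14 and 16.68 in SC+ muscle (-4.88, adjusted p = 0.0164), *Tnni1* at 11.08 and 10.72 against 14.53 and 14.10 (-3.42), *Myl4* at 15.48 and 14.25 against 18.22 and 17.34 (-2.92) and *Myog* at 8.73 and 7.38 against 10.47 and 10.18 (-2.27, adjusted p = 0.0246). *Igf2* and *Myog* passed on 1 of 4 omissions, *Myl4* on 2 and *Tnni1* on 0. *Npnt*, a matrix ligand of integrins, was lower by 2.62 on the log2 scale (7.61 and 6.74 against 10.06 and 9.53). *Cdh15*, M-cadherin of satellite cells and myoblasts, stood at 6.28 and 6.04 against 7.44 and 7.38 (-1.26, adjusted p = 0.0377) and *Myf5* at 4.20 and 3.49 against 5.59 and 5.35 (-1.62, adjusted p = 0.0317), the latter below the level where arrays show mostly background. *Npnt* passed on 2 of 4 omissions and *Cdh15* and *Myf5* on 0.

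Among the other lower genes, *Dag1*, which encodes dystroglycan, stood at 11.74 and 11.91 in SC- day 7 and between 13.13 and 13.34 on both SC- sham arrays and all 4 SC+ arrays (-1.41, adjusted p = 0.0109). *Sspn*, sarcospan of the same complex, was at 9.19 and 9.23 against 10.49 and 10.17 in SC+ day 7, and *Chrnb1*, a subunit of the acetylcholine receptor, at 10.35 and 11.03 against 12.97 and 12.38 (-1.99). *Lmod3*, which encodes a leiomodin of the thin filaments, was at 10.83 and 10.55 against 12.57 and 12.53. On omission of 1 of the 4 arrays, the calls of *Dag1* and *Chrnb1* held in 2 cases, that of *Lmod3* in 1 and that of *Sspn* in 0.

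Proteins that are secreted or sit on the cell surface were among the 13 genes higher in SC- muscle at day 7. *Mmp9* stood at 11.59 and 9.89 against 6.27 and 8.47 (3.37, adjusted p = 0.0117). *Pf4*, a chemokine of platelets and macrophages, stood at 12.46 and 12.23 against 9.15 and 10.26 (2.64), *Csf1*, the growth factor of macrophages, at 12.35 and 11.99 against 10.79 and 10.34 (1.61) and *Plvap*, a protein of fenestrated endothelium, at 9.45 and 9.20 against 7.55 and 7.32 (1.89). *Sfrp2* was 2.46 higher. On omission of 1 of the 4 arrays their calls held in 0 to 2 cases, *Csf1* and *Plvap* in 0. The median level of the macrophage list was 10.84 and 10.20 in SC- day 7 and 9.30 and 9.66 in SC+ day 7, and the part of those cells in these differences was not tested.

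**Figure D5:**
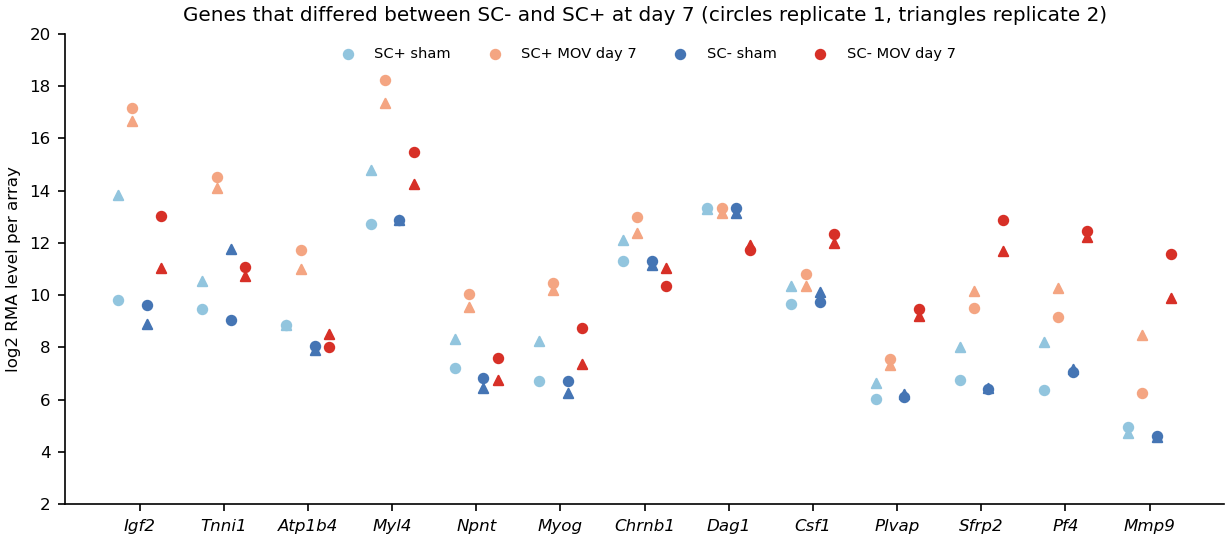
Log2 level on each array (circles replicate 1, triangles replicate 2) in SC+ sham, SC+ MOV day 7, SC- sham and SC- MOV day 7 for 13 genes that differed between SC- and SC+ muscle at day 7. *Igf2* to *Dag1* are lower in SC- day 7 (red) than in SC+ day 7 (orange), with *Atp1b4* at 8.02 and 8.52 against 11.74 and 11.00, and *Csf1* to *Mmp9* are higher.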

How the data were processed

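The 20 Affymetrix arrays were normalized by the authors with the robust multi-array average (RMA), and the deposited values are log2 expression levels per probe set. The methods name the GeneChip Mouse Gene 1.0 ST, but the probe names are of another style, so the array type is not settled here. Per the labels each group had 2 arrays, each of RNA pooled from 2 or 3 mice, and the number of arrays limits the precision. Of 28846 probe sets, 19572 had 1 gene symbol in the platform annotation and gave 19505 genes, and for genes with several probe sets the one with the highest mean level was used. A linear model over all 20 arrays with 10 group means was fitted with limma (version 3.58.1, R 4.3.3, statmod 1.5.0), with Benjamini-Hochberg adjustment over all genes and a threshold of 0.05. The gene lists and the comparison were chosen with earlier results of these data known. Genes were named by rule as the 15 largest rises and falls, the key members of each list with up to 5 further members, and the 8 largest differences in each direction between the SC- and SC+ responses and between days 7 and 5, with a mean of 8 or more in the higher group. Members named outside the rule, for not passing or for going against their list, and those that carry the promoter element, were chosen after their values were seen. Over all genes, replicate numbers did not pair the arrays (45 pairs, r from -0.155 to 0.216), so no block was used. A correlation over all genes can miss a pairing confined to a few genes. The clock genes *Dbp* and *Arntl* moved with the replicate number in the SC- day 7 and SC- sham groups. The fits were tested on simulated data. Alternatives were the 4 or 10 arrays alone, a replicate block, a minimum mean level of 6, repeated quantile normalization, an intensity trend, the mean of the probe sets of a gene, all rows of the table and the omission of each array. The response difference counts of the lists without single arrays were added after the data were seen. Promoter windows came from RefSeq (GRCm38.p6).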

Additional observations from a re-analysis of the deposited data

How the results depend on the processing

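The counts of the day 7 response in SC- muscle stayed within 1.5 times under all alternatives run, from 2592 to 3386 genes higher and from 2108 to 2938 lower, and on omission of an array from 2190 to 2629 and from 1822 to 2260. The numbers tested differed, so like counts can be unlike shares. The values of 3386 and 2938 came from all 28846 rows of the table instead of 19505 genes. With a mean level of 6 or more, 2854 of 11347 genes were higher and 2431 lower, larger shares than the 15% and 13.6% of the main fit. With the replicate number as a block the counts were 2935 higher and 2643 lower, and the block ended 2 of the calls of named genes. With the block, 9 circadian clock genes were lower and 1 higher, and 2 tenocyte markers were lower. No named gene that passed in the main fit or in the alternative changed direction between them. *Tnni1*, which did not pass in the main fit, could change sign without a call. Its SC- day 7 arrays (11.08 and 10.72) lay between its SC- sham arrays (9.06 and 11.75). For day 7 against day 5, 11 genes were higher and 1 lower with only the 10 SC- arrays, 1 was lower with a mean level of 6 or more, and omissions gave 0 to 3 higher and 0 to 1 lower. For the difference between the responses, omissions gave 0 to 109 genes higher and 0 to 18 lower, the upper values without SC+ sham replicate 1. For SC- against SC+ at day 7, 28 genes were higher and 69 lower with a mean level of 6 or more, 69 were lower with the intensity trend, and omissions gave 0 to 14 higher and 1 to 31 lower, the lowest lower count without SC+ day 7 replicate 1. The cause of these shifts was not tested. A change at a level close to background, or close to the highest levels of the table, is limited in size.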

Other observations

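Of 16 genes of the circadian clock, 5 fell and 0 rose at day 7 in SC- muscle, and over omissions of single arrays 4 to 7 fell and 0 or 1 rose. *Nr1d1*, a repressor of the clock, stood at 9.07 and 10.34 against 12.52 and 11.57 in sham (-2.34, adjusted p = 6.18e-05), and *Bhlhe40* fell by 1.76. *Dbp*, a clock output gene, stood at 11.11 and 14.53 against 14.39 and 16.44, and *Arntl*, the clock activator, at 10.38 and 8.69 against 10.68 and 8.81, so arrays of the same group differed by more than 1 on the log2 scale in both genes, *Dbp* being lower and *Arntl* higher on replicate 1 of each group. With the replicate number as a block, 9 of the 16 clock genes fell and 1 rose. The hour of tissue collection of each array is not used here.

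Of 13 interferon-stimulated genes, 3 rose, against 15% of all genes. *Ddx58*, a sensor of viral RNA, rose from 7.25 and 7.22 to 9.81 and 8.76 (2.05, adjusted p = 0.000492). Without SC- day 7 replicate 1 or SC- sham replicate 1 the count was 1, and with only the 4 arrays compared it was 5. *Mx1* (1.19) did not pass on any of the 4 omissions of an array (adjusted p from 0.051 to 0.22), and *Oasl2* (1.79) did not pass without SC- day 7 replicate 1 (0.14), SC- day 7 replicate 2 (0.055) or SC- sham replicate 1 (0.15). Of 15 Notch pathway genes 4 rose, the receptor *Notch2* by 1.82 and the ligand *Jag1* by 1.71 among them, and 0 fell (1 without SC- sham replicate 2). Over all genes 15% rose and 13.6% fell. The Notch target *Hes1* stood at 5.37 and 5.35 against 5.15 and 5.34, near background.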
